A study of Bombyx mori with 12 samples.

Results

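Cyp307a1 (spook, gene ID ‘100127052’) and Nvd (neverland, gene ID ‘733067’) are 2 of the 17583 genes in the deposited count table. They were chosen by gene ID, because both encode enzymes that act at the start of ecdysteroid synthesis. Earlier results of these data were known at that choice, so their p-values and ranks are not those of genes picked blind. Libraries were made from poly(A) RNA of the cephalothorax, head plus thorax, of silkworm (Bombyx mori) larvae collected at the molt of the third instar. All larvae belonged to strain Guangri 3, written Gurangri 3 in the sample labels, which the study describes as dominantly trimolting (trimolters) and in which some larvae molt once more (tetramolters). The 12 libraries formed 4 groups of 3: batch 1 trimolters, batch 1 tetramolters, batch 2 trimolters and batch 2 tetramolters. The study reared spring larvae at 25°C and autumn larvae at 30 ± 2°C, each from the eggs of 6 moths, but no label gives a season for a batch, so the labelled batch cannot be told apart from season, temperature or day length. The labels name no mutation, drug or transgene, and all larvae were fed mulberry leaves. Library totals ran from 13449541 to 15650612 counts. No label says that the 3 libraries of a group came from separate animals, so p-values measure the spread between these libraries, which may be technical in part.

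Insects cannot make sterols and build their molting hormone from dietary cholesterol. In the prothoracic gland, which lies in the thorax, the oxygenase Nvd converts cholesterol in the first step of the pathway. Cyp307a1, a cytochrome P450, acts in the next, poorly resolved steps known as the Black Box. The P450 enzymes Cyp306a1, Cyp302a1 and Cyp315a1 then hydroxylate the sterol to ecdysone, and Cyp314a1 turns ecdysone into the active 20-hydroxyecdysone. Rising ecdysteroid sets off a molt, and the level falls again before the old cuticle is shed. The brain peptide PTTH stimulates the gland through its receptor Torso.

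Cyp307a1 was close to the limit of detection in 9 of the 12 libraries and clearly present in the batch 2 tetramolters. The batch 1 trimolters held 1, 0 and 0 counts, the batch 1 tetramolters 4, 0 and 1, and the batch 2 trimolters 0, 1 and 1. The batch 2 tetramolters held 211, 83 and 261 counts. No count in the first 9 libraries exceeded 4, and the lowest batch 2 tetramolter had 83. Scaled for library size (CPM), the gene stood at 13.5, 5.37 and 16.1 CPM in the batch 2 tetramolters, a mean of 11.6 ± 5.58 CPM (SD, n = 3). Of all 563 counts of Cyp307a1 in the series, 98.6% lay in these libraries. In a library without a count, the level that 0 counts allow was between 0.196 and 0.224 CPM (3 counts of the library), which covers counting error only.

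Nvd was detected in every library, at a low level in 3 groups and at a higher one in the batch 2 tetramolters. It had 7, 7 and 6 counts in the batch 1 trimolters and 7, 10 and 10 in the batch 1 tetramolters. It had 4, 3 and 3 counts in the batch 2 trimolters and 85, 24 and 48 in the batch 2 tetramolters. The highest of the other 9 libraries thus had 10 counts and the lowest batch 2 tetramolter 24. In CPM the group means were 0.462 ± 0.0662 in the batch 1 trimolters, 0.629 ± 0.131 in the batch 1 tetramolters, 0.222 ± 0.0365 in the batch 2 trimolters and 3.31 ± 1.96 in the batch 2 tetramolters (SD, n = 3 each). The batch 2 tetramolters held 73.4% of the 214 counts of Nvd.

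**Figure D1:**
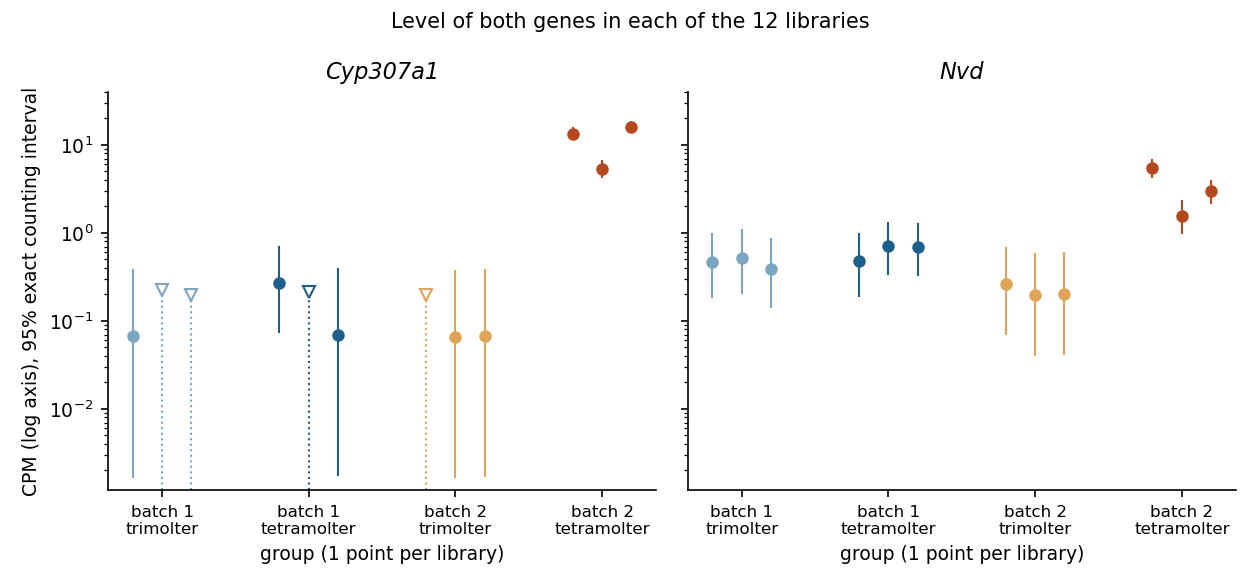
CPM of Cyp307a1 (left) and Nvd (right) in each library, on a log axis, by group. Circles are libraries with their 95% exact counting interval, and open triangles mark the level that 3 counts would give where the count was 0. For both genes all 3 batch 2 tetramolters lie above the other 9 libraries.

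Among the 10721 genes tested, 12.4% had all 3 batch 2 tetramolters above the other 9 libraries in CPM, as both genes did. Within this group batch 2 tetramolter 2 was the lowest for both genes. Batch 2 tetramolter 1 was the highest for Nvd (5.43 CPM, against 1.55 and 2.96) and batch 2 tetramolter 3 the highest for Cyp307a1. The 95% exact counting intervals of batch 2 tetramolters 1 and 3 overlapped for Cyp307a1 (11.7 to 15.4 and 14.2 to 18.1 CPM), and that of batch 2 tetramolter 2 lay below both (4.28 to 6.66 CPM). For Nvd the intervals of batch 2 tetramolters 2 and 3 overlapped (0.996 to 2.31 and 2.18 to 3.92 CPM), and that of batch 2 tetramolter 1 lay above both (4.34 to 6.72 CPM). In bulk tissue, fewer gland cells in a sample and less RNA per cell cannot be told apart.

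The comparison of molting types within batch 2 asked whether transcripts of early ecdysteroid synthesis differed between tetramolters and trimolters. Both genes rose in the tetramolters. The 555 counts of Cyp307a1 in the tetramolters stood against 2 in the trimolters. Scaled for depth, that was a ratio of 264, with 95% exact bounds of 72.8 and 2188 that cover counting error. That ratio ran from 175 to 355 when 1 of these 6 libraries was left out, the lowest without batch 2 trimolter 1, which had no count. The test passed with an adjusted p of 7.1e-05 (quasi-likelihood test of edgeR, Benjamini-Hochberg over all 10721 genes, called under 0.05). Nvd rose by 3.85 on the log2 scale (SE 0.55, edgeR adjusted p = 0.000239). All 3 tetramolters were above all 3 trimolters for both genes, which held for 27.7% of tested genes in this direction, and 19.7% were called higher. By fitted log2 fold change, Cyp307a1 stood at rank 2 and Nvd at rank 50 of the 10721 genes, counted from the largest rise. Few trimolter counts inflate such a rank, and that of Cyp307a1 rests on 2. By p-value of the edgeR test, Cyp307a1 stood at rank 55 and Nvd at rank 327. Both genes passed the filter on low counts through the batch 2 tetramolters, since neither passed it in fits of the batch 1 groups or of the trimolters alone.

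In batch 1 neither gene passed the test. Cyp307a1 had 5 counts in the tetramolters, 4 of them in 1 library, and 1 in the trimolters, a ratio of 5.06 with an exact interval from 0.566 to 239 (edgeR adjusted p = 0.3). Nvd had a log2 fold change of 0.44 (SE 0.52, edgeR adjusted p = 0.505), and the ranges of its groups overlapped, with 0.391 to 0.523 CPM in trimolters and 0.478 to 0.713 CPM in tetramolters. In this comparison 22.7% of tested genes were called higher. The count ratio of Nvd was 1.37, with an exact interval of counting error from 0.738 to 2.57. At these counts neither a fall nor a rise within that interval could be told from no change. No limit of detection was computed.

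The tetramolter change of Nvd was larger in batch 2 than in batch 1. The difference was 3.41 on the log2 scale (SE 0.76, edgeR adjusted p = 0.00226), where 53.8% of all tested genes were called and 26.8% of all tested genes were called in this direction. For Cyp307a1 the fitted difference did not pass in edgeR (adjusted p = 0.145), with 1 count in the batch 1 trimolters and 2 in the batch 2 trimolters to rest on. It passed in DESeq2 (adjusted p = 0.00361), which rests on the same few counts. It also passed in limma on log2(FPKM + 0.1) (adjusted p = 0.000349) and log2(FPKM + 1) (adjusted p = 0.00222). Outside the batch 2 tetramolters its FPKM was at most 0.0362, under both added constants, which hold the batch 1 change near none. The limma differences (3.76 and 1.31) thus largely restate the batch 2 changes (3.89 and 1.33) and are no separate support.

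Between batches, both genes were higher in the batch 2 than in the batch 1 tetramolters. Cyp307a1 had 555 counts against 5, a ratio of 101 (95% exact interval of counting error 43 to 312, edgeR adjusted p = 1.28e-05). The ratio was 333 without batch 1 tetramolter 1, which held 4 of the 5 counts. Nvd was higher by 2.39 on the log2 scale (SE 0.45, edgeR adjusted p = 0.000693), with all batch 2 tetramolters above all batch 1 tetramolters, as for 34.7% of tested genes. Of all tested genes 29.2% were called higher here. This comparison shares its batch 2 tetramolters with the comparison of molting types, so they are not independent of each other.

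In the trimolters neither gene was called between batches. Nvd had 10 counts in batch 2 and 20 in batch 1, a log2 fold change of -1.03 (SE 0.61, edgeR adjusted p = 0.249). Its CPM ranges did not overlap, with 0.199 to 0.264 in batch 2 and 0.391 to 0.523 in batch 1, as for 14.8% of genes in this direction, and 8.03% were called lower. The Cyp307a1 counts, 2 and 1, were too few for a fold change. The order of the Nvd groups was thus batch 2 trimolters, batch 1 trimolters, batch 1 tetramolters, batch 2 tetramolters, where only the last step passed a test. For Cyp307a1 the 3 lower groups could not be ordered, as their libraries overlapped between 0 and 4 counts.

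The balance between both transcripts also differed. Per length, in the authors' FPKM (scaled by gene length and depth), Cyp307a1 exceeded Nvd in each batch 2 tetramolter, with 1.86, 0.743 and 2.23 FPKM against 1.32, 0.378 and 0.721 FPKM. The FPKM ratio of Cyp307a1 to Nvd was 1.41, 1.96 and 3.09 in these libraries. In the other 8 libraries with FPKM values Nvd had the higher value, and the ratio lay between 0 and 0.325. These values rest on 0 to 4 counts of Cyp307a1 and 3 to 10 of Nvd per library. The order of both transcripts was thus not resolved in every single library. Of the counts of both genes, Cyp307a1 made up 71.3% to 84.5% in the single batch 2 tetramolters and 77.9% in their sum (exact binomial 95% interval 74.7% to 80.9%). The sums of the other groups gave 4.76% (0.12% to 23.8%) in the batch 1 trimolters, 15.6% (5.28% to 32.8%) in the batch 1 tetramolters and 16.7% (2.09% to 48.4%) in the batch 2 trimolters. None of these intervals of sums reached that of the batch 2 tetramolters, and all cover counting error only. The batch 2 tetramolters differed beyond it, with 65.8% to 76.4% in library 1 and 79.9% to 88.3% in library 3. Some intervals of single libraries did reach these, up to 69.2% in batch 1 tetramolter 1 and 80.6% in batch 2 trimolters 2 and 3. By the deposited values, the authors used a length for Cyp307a1 that was 1.761 times that for Nvd in the 8 libraries where both were counted and had FPKM.

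**Figure D2:**
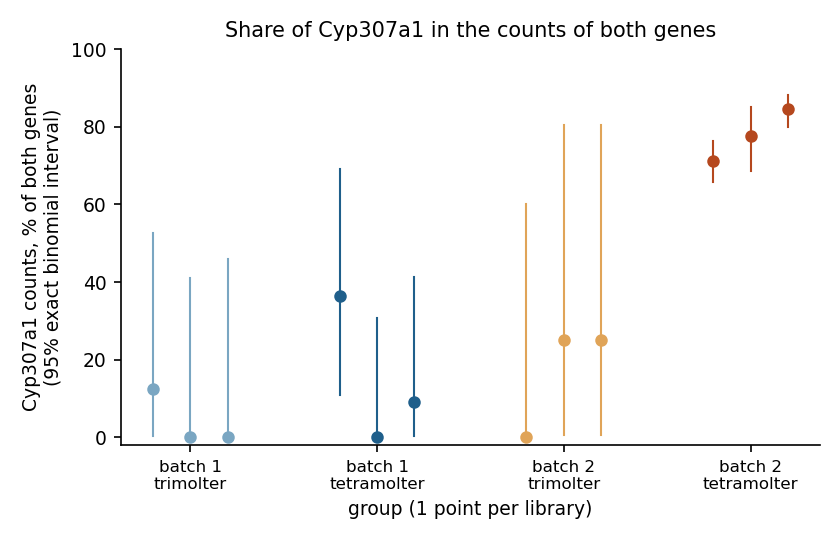
Share of Cyp307a1 in the summed counts of Cyp307a1 and Nvd, in percent, for each library by group, with 95% exact binomial intervals. The batch 2 tetramolters lie between 71.3% and 84.5% and the other 9 libraries between 0% and 36.4%.

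Cyp307a1 and Nvd are direct neighbours in the RefSeq assembly ASM3026992v2, and their annotated spans overlap. The other end of Nvd overlaps LOC101746131. The sources used here do not say whether counting used strand or how reads in overlaps were assigned, so a part of the counts of each of these genes may come from its neighbour. LOC101746131 rose in the batch 2 tetramolters as well, from 39.2 ± 3.34 to 89.9 ± 15.5 CPM (log2 fold change 1.20, edgeR adjusted p = 0.00193). In batch 1 it fell, from 53.1 ± 18.7 to 28.3 ± 0.752 CPM (log2 fold change -0.91, edgeR adjusted p = 0.00737). The next gene beyond Cyp307a1, LOC101746366, went the other way: it fell in the batch 2 tetramolters from 158 ± 18.9 to 68.4 ± 11.4 CPM (log2 fold change -1.20, edgeR adjusted p = 0.00251). These neighbours were chosen by position. The part of shared reads in the rise of Cyp307a1 and Nvd was not tested.

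None of the late enzymes of synthesis was called higher in the batch 2 tetramolters. Cyp306a1 fell in the batch 2 tetramolters, from 38.9, 36.3 and 32.7 CPM in the trimolters to 16.9, 19.7 and 14.3 CPM. Its groups did not overlap, as for 27.9% of tested genes in this direction, and the log2 fold change was -1.08 (SE 0.15, edgeR adjusted p = 0.000361). In batch 1 Cyp306a1 went the other way, with 64.4 ± 2.43 CPM in tetramolters against 17.2 ± 3.35 CPM in trimolters (log2 fold change 1.90, edgeR adjusted p = 1.5e-05). Cyp302a1, Cyp315a1 and Cyp314a1 did not pass in any comparison of molting types. Their group means lay between 0.68 and 1.51 CPM. Their log2 fold changes in batch 2 were 0.24 (SE 0.40), 0.28 (SE 0.32) and -0.45 (SE 0.54). The call of Cyp314a1 in batch 1 (log2 fold change 1.13) was gained without batch 2 trimolter 1 (edgeR adjusted p = 0.0429, against 0.0965).

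**Figure D3:**
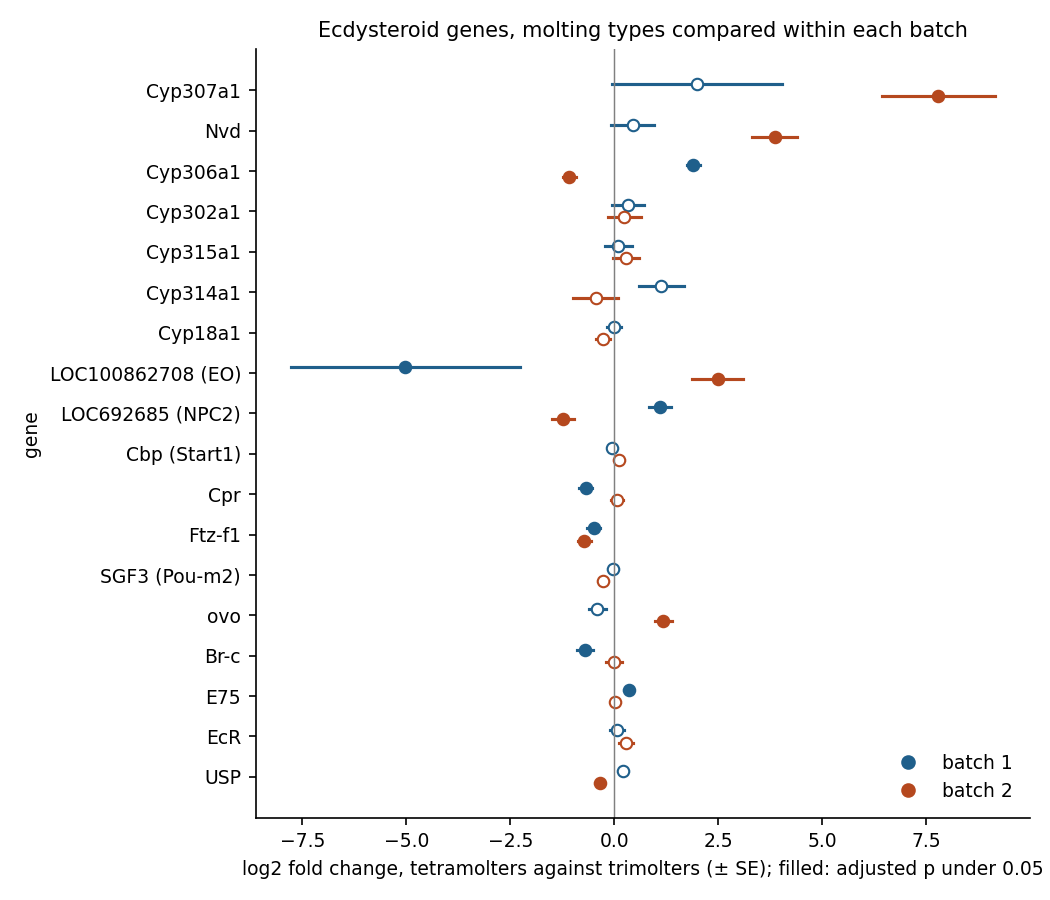
Log2 fold change of tetramolters against trimolters in batch 1 (blue) and batch 2 (red) for Cyp307a1, Nvd and the 16 other tested genes of the ecdysteroid list. Bars are ± SE from the edgeR fit and filled points passed at an adjusted p under 0.05. The fitted changes of Cyp307a1 and, in batch 1, LOC100862708 rest on groups with 1 to 5 counts. Cyp307a1 (7.79) and Nvd (3.85) show the largest batch 2 changes drawn.

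Enzymes that inactivate ecdysteroid differed from each other. LOC100862708, which RefSeq also lists as EO (ecdysone oxidase), rose in the batch 2 tetramolters from 16, 41 and 48 counts to 104, 337 and 176 (log2 fold change 2.48, SE 0.62, edgeR adjusted p = 0.0093). That call depended on batch 2 tetramolter 2, without which the edgeR adjusted p was 0.053. In batch 1 it fell, from 1, 24 and 19 counts to 1, 0 and 0, a ratio of 0.023 (95% exact interval of counting error 0.00057 to 0.135, edgeR adjusted p = 0.0166). The batch 1 call needed each of batch 1 trimolter 2 and batch 1 tetramolters 2 and 3, as leaving 1 of them out raised the edgeR adjusted p to at most 0.0526. It was also lost in limma on FPKM (adjusted p = 0.133 and 0.53). Cyp18a1, an enzyme that clears active hormone, did not pass in either batch (-0.01 in batch 1 and -0.26 in batch 2). Its batch 2 value passed without batch 2 tetramolter 1 (log2 fold change -0.45, edgeR adjusted p = 0.047).

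Of all 18 other genes of the ecdysteroid list, which covers late enzymes, inactivation, sterol carriers, the P450 reductase, gland control and transcription factors, 16 were tested. In batch 2, 2 rose (LOC100862708 and ovo), 4 fell (Cyp306a1, LOC692685, Ftz-f1 and USP) and 10 did not pass. The median log2 fold change of the list was 0.01, against -0.013 over all tested genes, of which 38% were called. The transcription factor gene ovo rose from 4.15, 4.5 and 5.54 to 12.2, 9.58 and 10.3 CPM. Its groups did not overlap, as for 27.7% of tested genes in this direction, and the log2 fold change was 1.18 (SE 0.20, edgeR adjusted p = 0.00115). LOC692685, an NPC2 sterol carrier by its RefSeq synonyms, fell by 1.24, and the nuclear receptor genes Ftz-f1 and USP fell by 0.72 and 0.35. The call of USP failed when any of batch 2 trimolters 1 and 3 and batch 2 tetramolters 1 and 3 was missing (highest edgeR adjusted p 0.105) and with the replicate block (0.0606). That of SGF3, also listed as Pou-m2, a POU factor gene, was gained without batch 1 trimolter 1 (-0.28, edgeR adjusted p = 0.0198, against 0.113) and in a fit of the batch 2 libraries alone (0.0342).

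In batch 1, 3 of the 16 rose (Cyp306a1, LOC692685 and E75), 4 fell (LOC100862708, Cpr, Ftz-f1 and Br-c) and 9 did not pass, where 45.4% of all tested genes were called. The list's median was 0.03 and that of all tested genes 0.007. Cpr, which encodes the reductase that supplies P450 enzymes with electrons, fell by 0.69 (edgeR adjusted p = 0.00278). The calls of Ftz-f1 (-0.50), Br-c (-0.70) and E75 (0.35) were each lost without at least 1 library: Ftz-f1 without batch 1 tetramolter 1, Br-c without batch 1 trimolter 3, and E75 without batch 1 trimolter 2 or 3, any batch 1 tetramolter or any batch 2 trimolter. Limma on FPKM lost Br-c and E75, and E75 was also lost without the filter and in a fit of the batch 1 libraries alone (adjusted p of up to 0.121 over its settings). Calls were gained for USP without batch 1 trimolter 1 (edgeR adjusted p = 0.025) and for ovo (-0.41) without batch 1 tetramolter 2 (edgeR adjusted p = 0.0361) and in limma on FPKM (0.0499 and 0.0465).

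PTTH and torso fell below the filter on low counts. PTTH had 14 counts in the batch 1 trimolters, 19 in the batch 1 tetramolters, 28 in the batch 2 trimolters and 3 in the batch 2 tetramolters, where the single libraries held 2, 0 and 1. The other 9 libraries had between 2 and 17 counts of PTTH, so the ranges touched at 2. Torso, the receptor by which the prothoracic gland senses PTTH, had 1 count in all 12 libraries together.

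The genes whose log2 CPM followed Cyp307a1 most closely over the 12 libraries, among 1022 tested genes with a symbol and a mean of at least 1 log2 CPM, were MBF1 (Pearson r = 0.940), NGR-A13 (0.931), Znrd1 (0.922), SNF (0.912) and Smt3 (0.899). For Nvd they were NGR-A13 (0.905), Znrd1 (0.903), MBF1 (0.892), CTL10 (0.881) and CPG15 (0.881). MBF1 encodes a transcriptional coactivator, NGR-A13 a neuropeptide receptor, Smt3 the modifier SUMO, CTL10 a C-type lectin and CPG15 a cuticle protein. Cyp307a1 and Nvd correlated with each other at 0.901, which put Cyp307a1 at rank 14 for Nvd and Nvd at rank 78 for Cyp307a1 among the 10720 other tested genes. These correlations are descriptions over 12 libraries of 4 groups that share depth and scaling. All of the named genes had their highest group mean in the batch 2 tetramolters. That follows largely from their choice by correlation with Cyp307a1 and Nvd, which peak there, and is no separate result. MBF1 went from 53.4 ± 1.95 CPM in the batch 2 trimolters to 98.9 ± 5.6 CPM in the tetramolters, and NGR-A13 from 3.83 ± 0.705 to 9.95 ± 2.4 CPM. Of these 7 genes CPG15 had the largest ratio between both groups, from 3.79 ± 2.01 to 142 ± 43.1 CPM.

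**Figure D4:**
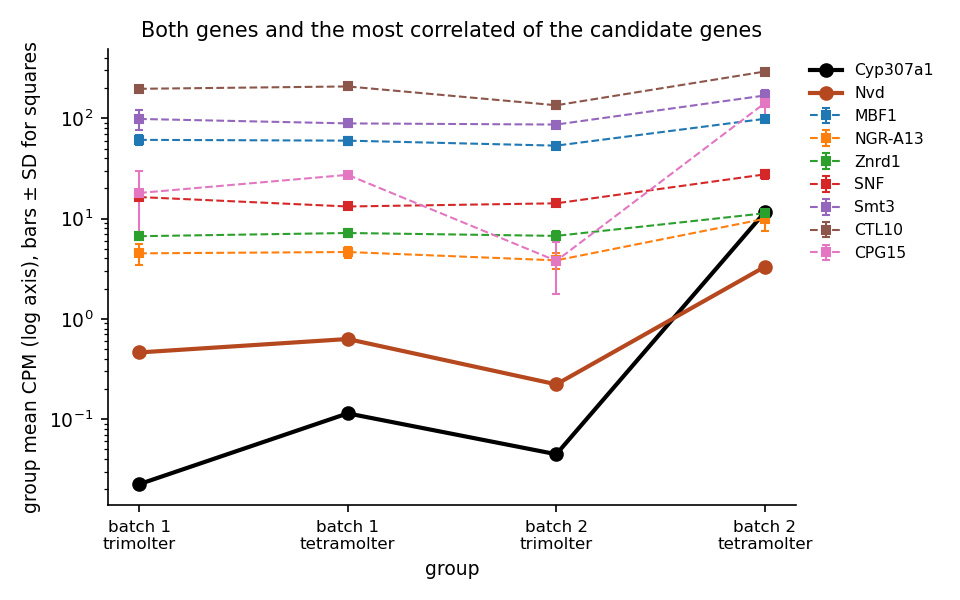
Group mean CPM, on a log axis, of Cyp307a1, Nvd and the 7 genes most correlated with them over the 12 libraries, among 1022 candidates with a symbol and a mean of at least 1 log2 CPM. Bars on squares are ± SD (n = 3), and lines join the groups for the eye only. All 9 genes are highest in the batch 2 tetramolters, which the choice by correlation favours.

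Summed levels of some other tissues' markers differed between the molting types of batch 2. In these sums the batch 2 tetramolters did not stand apart from all batch 1 libraries. Of the single haemocyte, muscle and midgut markers, Apn4, PPO1 and Projectin did. Apn4 was at 1065 to 1459 CPM, against at most 837 CPM in batch 1. PPO1 was at 775 to 884 CPM against at most 695 CPM, and Projectin at 9.78 to 14.2 CPM against at least 21.5 CPM. The markers PPO2, TpnI, Titin2, Apn1, Apn2 and Apn3 overlapped batch 1. The share of all tested genes that stood apart in this way was not computed, so these markers cannot be called unusual. Against the batch 1 tetramolters alone, 34.7% of tested genes had all batch 2 tetramolters higher. Both haemocyte markers were counted, with a summed level of 2009 to 2428 CPM in the batch 2 tetramolters and 3316 to 4103 CPM in the trimolters of that batch, against 443 to 2205 CPM in the batch 1 trimolters and 1355 to 1470 CPM in the batch 1 tetramolters. The 3 muscle markers summed to 2832 to 3503 CPM in the batch 2 tetramolters against 4574 to 6000 CPM in the trimolters. In batch 1 their order was the opposite, with 9667 to 10797 CPM in tetramolters and 2639 to 5966 CPM in trimolters. The 4 midgut markers summed to 3769 to 5060 CPM in the batch 2 tetramolters against 3071 to 3497 CPM in the trimolters, and to 1576 to 4489 CPM in the batch 1 trimolters and 1649 to 1920 CPM in the batch 1 tetramolters. The midgut markers went different ways in batch 2: the means of Apn3 (601 and 1270 CPM) and Apn4 (601 and 1241 CPM) were higher in tetramolters, and those of Apn1 (1614 and 1432 CPM) and Apn2 (470 and 426 CPM) were lower. Of 4 fat body markers 3 had counts, with overlapping sums of 11.3 to 68.2 CPM in batch 2 tetramolters and 7.36 to 19.6 CPM in trimolters (4.83 to 40.3 and 10.2 to 12.5 CPM in batch 1 trimolters and tetramolters), and VG was at 0 in all libraries. The neural markers Elav and PDF summed to 26.8 to 31 CPM in the batch 2 tetramolters against 19.1 to 23 CPM in the trimolters, and to 24 to 30.3 and 20.3 to 26.3 CPM in the batch 1 trimolters and tetramolters. Of 6 silk gland markers FIBH was at 0 throughout and the sum did not exceed 1.71 CPM in any library. The Hox genes Scr and Dfd, of head and anterior thorax, summed to 8.44 to 9.58 CPM in the batch 2 tetramolters. In the batch 2 trimolters they summed to 5.89 to 6.79 CPM, without overlap. That came from Scr, at 7.76 to 8.63 CPM in tetramolters and 5.03 to 6.26 CPM in trimolters. Of all tested genes, 27.7% did not overlap in this direction. Dfd overlapped, at 0.677 to 0.971 and 0.527 to 0.945 CPM. The sums of Scr and Dfd were 7.02 to 10.7 and 7.64 to 8.63 CPM in the batch 1 trimolters and tetramolters. The abdominal abd-A and Abd-b summed to at most 0.493 CPM, and Jhamt, of the corpora allata, was at no more than 0.417 CPM. The part of tissue makeup in the rise of Cyp307a1 and Nvd was not tested.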

How the data were processed

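The tools named in the submitters' processing notes are StringTie 2.2.1, Trimmomatic 0.39, DESeq2 1.38.3 and HISAT2 2.2.1. HISAT2 appears as 2.0.5 in the labels' extract protocol. A first deposited table gives raw counts per gene, as whole numbers without normalization, and a second deposited table gives FPKM, which the authors scaled by length and depth. The FPKM column of batch 1 trimolter 2 is empty, so 11 libraries have FPKM. Not given in the sources used here are the genome build and annotation, how reads were counted, and whether strand was used. Of 17583 rows, 14945 matched RefSeq gene IDs, used for names and neighbours. Left out of library sizes and tests were 511 numbered loci without a gene ID (0.21% to 0.264% of counts), a choice taken over from an earlier treatment of these data.

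An edgeR model (version 4.0.16, R 4.3.3) of 4 group means was fitted to the counts of 12 libraries, after filterByExpr by group and TMM scaling, and tested by quasi-likelihood. The 10721 genes left were adjusted by Benjamini and Hochberg in each of 5 comparisons, 2-sided, with a threshold of 0.05. CPM are counts per TMM-scaled library. Groups of few counts are given as ratios with exact 95% intervals (scipy 1.17.1). Correlations used log2 CPM with a prior count of 2. Named genes were both members, the ecdysteroid list and, per member, the 5 most correlated of the 1022 tested genes with a symbol and a mean of at least 1 log2 CPM. Alternatives used other scalings, DESeq2 1.42.0, limma 3.58.1 on FPKM, no filter, the compared groups alone, the numbered loci, a replicate block and each library left out. Every replicate pair differed by more than sampling noise. The batch 1 trimolters differed most among themselves, with a chi-square per gene of 109 to 289. In the batch 1 tetramolters it was 3.23 to 7.51. All groups share 1 estimate of the spread in the model. Members and lists were chosen with earlier results of these data known.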

Additional observations from a re-analysis of the deposited data

Results flagged for a closer look

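The tetramolter change differed between batches for Nvd, by 3.41 log2 units (batch 2 minus batch 1). The same test passed for 7 other genes of the ecdysteroid list. The difference was positive for LOC100862708 (7.51, a fitted value that rests on a group with 1 count), ovo (1.59), Cpr (0.75) and Br-c (0.70). It was negative for Cyp306a1 (-2.99), LOC692685 (-2.34) and USP (-0.56). Of all tested genes 53.8% passed this test. The call of Br-c was lost without batch 1 trimolter 2 or 3, batch 1 tetramolter 1 or 2, batch 2 trimolter 1 or 3 or any batch 2 tetramolter (highest edgeR adjusted p 0.108), with upper quartile factors (0.077) and in limma on FPKM (0.149 and 0.139). Calls were gained for Cyp314a1 without batch 2 trimolter 1 (-2.01), and for E75 (-0.42) and SGF3 (-0.37) without batch 1 trimolter 1. E75 also passed with upper quartile factors (-0.44).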

How the results depend on the processing

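Of 280 recomputed values for 15 results on Cyp307a1, Nvd and the numbers of called genes, 267 kept their direction and side of the threshold or stayed within the range set for them, and 0 reversed. The Cyp307a1 comparisons in batch 1 and between trimolters, with 1 to 5 counts per group, were not among these results. Fits of the batch 1 groups or the trimolters alone gave no value for either gene. The difference of the Cyp307a1 changes between batches passed in DESeq2 (adjusted p = 0.00361) and in limma on log2(FPKM + 0.1) and log2(FPKM + 1) (0.000349 and 0.00222), and the cause was not tested. In limma the added constants exceed every FPKM of this gene outside the batch 2 tetramolters, so its difference largely restates the batch 2 change. Without 1 library its edgeR adjusted p lay between 0.0791 and 0.929. The ratio of Cyp307a1 between tetramolters of both batches lay between 68.1 and 333 without 1 library. On log2(FPKM + 1) the batch 2 change of Nvd was 0.75. The number of genes called between trimolters of both batches, 1664, was 135 when only the trimolters were fitted, 2685 and 2683 in limma with a pseudocount of 0.1 and 1, and 716 to 2723 without 1 library, with 2594 and 2723 without batch 1 trimolter 1 and 2, 716 without batch 1 trimolter 3, and 917, 893 and 784 without batch 2 trimolter 1, 2 and 3. No label says that replicate numbers pair the libraries. Deviations from the group means correlated between -0.042 and 0.114 for same-numbered libraries and between -0.136 and 0.1 for the others. With 3 libraries per group, such values cannot decide whether the numbers pair libraries. With the replicate block the batch 2 change of Nvd was 3.76 and no call of Cyp307a1 or Nvd changed. At 10 or fewer counts per library, counting error limits both genes in 3 of the 4 groups.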

Other observations

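Within the batch 2 tetramolters the order of the libraries differed between genes of the ecdysteroid list. Batch 2 tetramolter 2 had the lowest Cyp307a1 (5.37 CPM, against 13.5 and 16.1) and the lowest Nvd (1.55 CPM, against 5.43 and 2.96). The same library had the highest Cyp306a1 (19.7 CPM, against 16.9 and 14.3), Cyp302a1 (1.42 CPM, against 0.639 and 1.23) and Cyp315a1 (1.17 CPM, against 1.02 and 1.05), which act later in synthesis. It was also the highest for LOC100862708, listed as ecdysone oxidase (21.8 CPM, against 6.65 and 10.8). It was in the middle for Cyp314a1 (0.712 CPM, against 0.895 and 0.493) and Cyp18a1 (26.7 CPM, against 35.5 and 23.9). In batch 2 tetramolters 1, 2 and 3, Cyp302a1 had 10, 22 and 20 counts and Cyp315a1 had 16, 18 and 17. Cyp314a1 had 14, 11 and 8. At such counts the ranks given for Cyp302a1, Cyp315a1 and Cyp314a1 were not resolved from counting error. With 3 libraries the order of the libraries is a description without a test.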
